A study of Mus musculus with 8 samples.

Results

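The liver secretes most of the proteins of blood plasma, and 8 of their genes that stood out in some hearts are described here. They are the carrier protein genes Alb, Ttr and Hpx, the apolipoprotein genes Apoa1 and Apoa2, the fibrinogen chain gene Fgb, and the major urinary protein genes Mup20 and Mup3. The members were the genes with these symbols among the 22180 genes measured, and each was read by 1 probe set, so 8 of 22180 genes are covered. They were selected on their log2 values in these same 8 hearts, some of which stood out, so their levels by heart are a description with no test. The hearts came from 4 female and 4 male mice, all heterozygous for Pcyt2 (Pcyt2+/-) and 8 months old. Pcyt2 encodes an enzyme that makes CDP-ethanolamine for phosphatidylethanolamine synthesis. The labels name myocardium as the tissue and call the hearts of a sex biological replicates. No hearts with both alleles of Pcyt2 intact were used here, so sex is the only contrast.

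Hepatocytes make plasma proteins in very large amounts and secrete them into the blood. Heart muscle is not known as a main source of them. Albumin carries fatty acids, hormones and drugs, transthyretin carries thyroid hormone and retinol-binding protein, and hemopexin binds free heme. Apolipoproteins A-I and A-II are the main proteins of high-density lipoprotein. The beta chain is part of fibrinogen, which forms clots. Major urinary proteins are lipocalins of rodents that liver releases for excretion in urine, where they carry pheromones.

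All values are on a log scale whose base was taken as 2, and fold values rest on that base. Each value is relative to the median of a gene's probe set over the 8 hearts. A value of 0 is thus the middle of these hearts and not the absence of RNA, and no absolute level is known. For the same reason the levels of cardiac muscle markers cannot be checked against other tissues. The mean of 9 measured cardiac muscle markers lay between -0.05 and 0.03 in females and between -0.03 and 0.02 in males. The sex labels were checked with Xist, which lay between 1.99 and 2.18 in females and between -3.02 and -1.99 in males. The targeted gene Pcyt2 averaged 0.04 ± 0.14 in females and 0.09 ± 0.20 in males (SD, n = 4 each).

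Female hearts 1 and 2 carried the high values. In 7 of the 8 genes these were the highest hearts of the 8, against 4.32% of all genes. The exception was Apoa1, which was high in female 2 alone. Of the 8 genes, 5 were highest in female 2, the heart with the highest Alb, against 11.7% of all genes. The other 3, Apoa2, Mup20 and Mup3, were highest in female 1, against 13% of all genes. The genes were picked for such values, so these counts are descriptive. In the 6 other hearts, all values of the 8 genes lay between -0.18 and 0.20.

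Alb, the gene of the most abundant plasma protein, had by far the widest span. Its values were 1.76, 2.69, -0.17 and 0.02 in females 1 to 4, against 0.03, -0.14, -0.18 and -0.02 in males 1 to 4. Female 1 was 3.38-fold and female 2 was 6.45-fold above the median of the hearts. The other females lay within the range of the males. With a span of 2.87 between the highest and the lowest heart, Alb ranked 6 among all genes. The lower of females 1 and 2 stood 1.72 above the highest of the other hearts, the widest such gap of any gene. These hearts were taken as the pair because they were highest in Alb, so this rank follows in part from that choice.

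The other carrier genes followed Alb with much smaller values. Hpx, the hemopexin gene, had 0.22, 0.38, 0.08 and -0.05 in females 1 to 4, against -0.02, 0.0052, -0.0052 and -0.03 in males 1 to 4. Females 1 and 2 lay above all other hearts, as for Alb, with female 2 the higher. Ttr, the transthyretin gene, had 0.13, 0.18, -0.14 and -0.03 in females 1 to 4, against -0.15, 0.02, 0.01 and -0.01 in males 1 to 4. Its order of the high hearts was that of Alb, but their excess of 0.11 over the next heart was smaller than the span of 0.18 among the 6 other hearts.

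The apolipoprotein genes differed from each other. Apoa2 had 0.41, 0.37, -0.02 and -0.0021 in females 1 to 4, against -0.03, 0.0021, -0.03 and 0.02 in males 1 to 4. Females 1 and 2 were nearly equal and stood 0.35 above the next heart, while the 6 other hearts spanned only 0.05. Apoa1 had -0.03, 0.41, -0.05 and -0.01 in females 1 to 4, against 0.01, 0.05, -0.02 and 0.05 in males 1 to 4. Female 2 was therefore as high in Apoa1 as in Apoa2, while female 1 lay among the other hearts in Apoa1.

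Fgb, the fibrinogen beta chain gene, leaned the same way as Apoa1. Its values were 0.08, 0.30, -0.0020 and 0.0020 in females 1 to 4, against -0.02, -0.01, 0.0060 and -0.07 in males 1 to 4. Female 2 stood clear, and female 1 exceeded the next heart by 0.07, which is less than the 0.08 spanned by the 6 other hearts. Of the genes of the partner chains, Fgg had 0.12 in female 1 and 0.18 in female 2 and lay between -0.05 and 0.04 in the other hearts. Fga had 0.12 in female 1 but 0.02 in female 2, which was below the 0.03 of female 4. Fgb and Fgg thus shared their order of the high hearts with Alb, and Fga did not.

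The major urinary protein genes were the members with the widest spans after Alb, and in them female 1 was the higher of the high hearts. Mup20, which encodes the pheromone protein darcin, had 1.02, 0.77, 0.05 and -0.12 in females 1 to 4, against -0.06, -0.08, -0.02 and 0.02 in males 1 to 4. Female 1 was 2.03-fold and female 2 was 1.70-fold above the median. Mup3 had 0.66, 0.50, 0.20 and -0.05 in females 1 to 4, against -0.18, -0.18, -0.02 and 0.02 in males 1 to 4. Here female 3 also lay above all males, and female 4 lay among them. Many Mup genes are near-identical copies, so probe sets for single members may read RNA of others. Whether this holds for Mup20 and Mup3 was not tested, so the 2 genes may not be separate measurements.

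**Figure D1:**
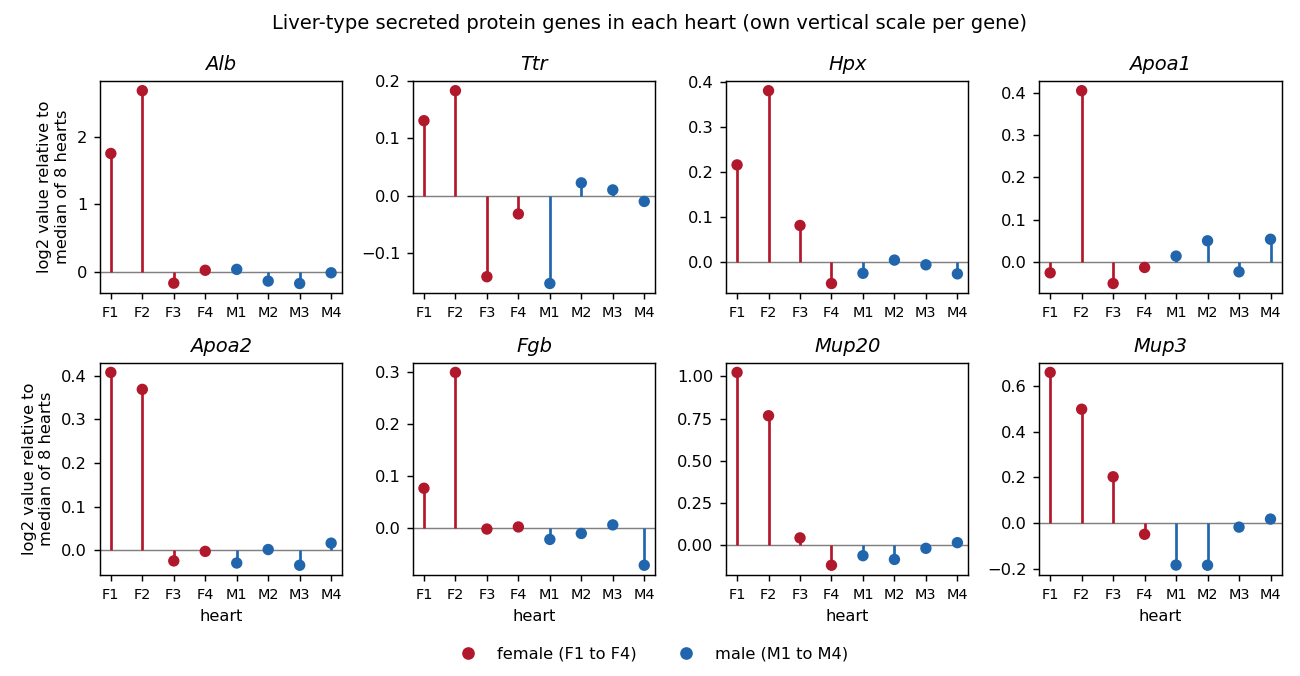
Log2 value of each gene relative to the median of the 8 hearts (vertical axis, a separate scale for each gene) in females 1 to 4 and males 1 to 4 (horizontal axis), 1 point per heart. Females 1 and 2 stand above the other hearts in every gene but Apoa1, where only female 2 does, and the scale of Alb reaches 2.69 while that of Ttr reaches 0.18.

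The balance between the high hearts differed between the genes. Female 2 exceeded female 1 by 0.93 in Alb, 0.43 in Apoa1, 0.22 in Fgb, 0.16 in Hpx and 0.05 in Ttr. The same difference was -0.04 in Apoa2, -0.16 in Mup3 and -0.26 in Mup20. These differences each compare 1 heart with another and have no replicate check. Away from the high hearts the genes did not move together. Over the 6 other hearts, only 10 of the 28 pairs of genes had a Pearson correlation above 0, with a median of -0.25 and a range from -0.74 for Alb and Hpx to 0.77 for Mup20 and Mup3. These correlations are a description of 6 hearts with values near the median. The likeness of the 8 genes over all 8 hearts therefore rests on females 1 and 2.

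**Figure D2:**
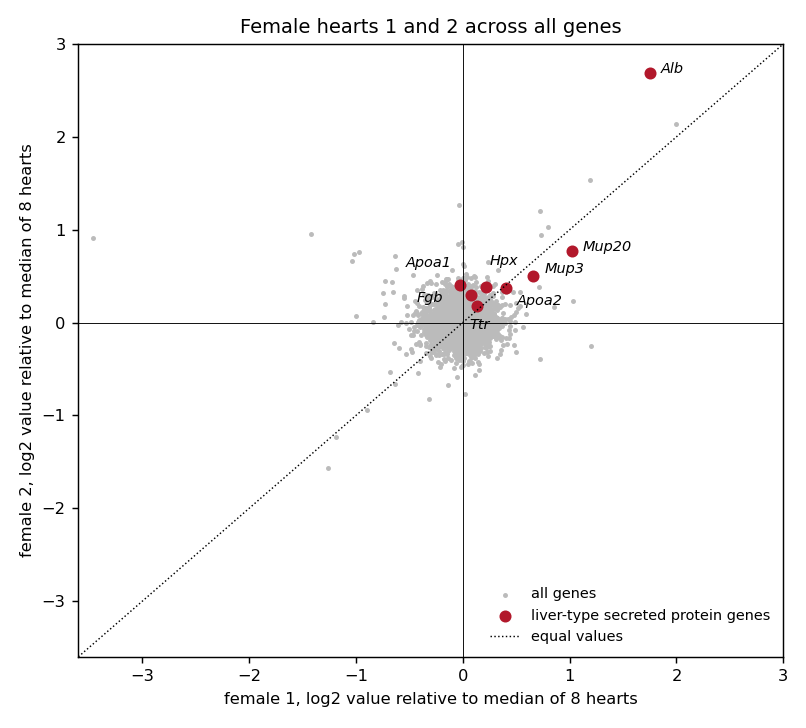
Log2 value relative to the median of the 8 hearts in female 1 (horizontal axis) and female 2 (vertical axis) for all 22180 genes (grey) and the 8 liver-type secreted protein genes (red). Alb lies far out above the line of equal values, at 1.76 and 2.69, Mup20 and Mup3 lie just below the line, and Apoa1 lies above the origin with -0.03 in female 1.

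Since most of the genes had their high values in the same hearts, promoters are shown for the 3 genes most clear of the other hearts that had an entry, and for Apoa1, which differed from them. RefSeq promoter sequences of GRCm38.p6 were matched for 6 of the 8 genes, all but Ttr and Mup20. Each line gives the 250 bases before the listed transcript start, 5′ to 3′ on the gene's own strand. They lie at chr5:90460620-90460869 (plus strand) for Alb, chr4:62087318-62087567 (minus strand) for Mup3, chr1:171224804-171225053 (plus strand) for Apoa2, where the first of the listed starts was used, and chr9:46228380-46228629 (plus strand) for Apoa1. Capitals mark matches on either strand to 5 short motifs. The core letters of sites of the liver factor HNF1 were searched as GTTAAT, and those of FOXA factors as TGTTTNC. The CCAAT box was searched by the letters of its name, the TATA box as TATANA, and sites of C/EBP factors as TTNNGCAA.
Alb: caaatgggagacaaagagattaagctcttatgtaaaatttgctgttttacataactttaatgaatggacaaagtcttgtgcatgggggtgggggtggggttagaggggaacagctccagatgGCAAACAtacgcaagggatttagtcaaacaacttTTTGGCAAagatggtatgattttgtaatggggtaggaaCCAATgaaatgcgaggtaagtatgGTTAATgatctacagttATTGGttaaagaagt
Mup3: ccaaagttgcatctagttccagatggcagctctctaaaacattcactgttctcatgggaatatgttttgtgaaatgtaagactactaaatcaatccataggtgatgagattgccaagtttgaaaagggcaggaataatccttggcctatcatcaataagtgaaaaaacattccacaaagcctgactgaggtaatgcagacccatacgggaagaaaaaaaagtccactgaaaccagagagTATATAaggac
Apoa2: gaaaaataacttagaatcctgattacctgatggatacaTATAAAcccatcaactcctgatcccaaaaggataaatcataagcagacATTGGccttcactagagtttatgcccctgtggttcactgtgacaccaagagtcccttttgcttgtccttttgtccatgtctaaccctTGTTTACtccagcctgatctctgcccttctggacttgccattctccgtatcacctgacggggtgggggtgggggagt
Apoa1: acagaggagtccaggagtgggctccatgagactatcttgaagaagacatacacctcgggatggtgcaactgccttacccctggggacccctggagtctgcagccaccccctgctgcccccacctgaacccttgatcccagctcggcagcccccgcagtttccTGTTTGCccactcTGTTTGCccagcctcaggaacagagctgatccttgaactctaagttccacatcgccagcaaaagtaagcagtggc

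Alb held 4 of these motifs, with the HNF1 core 32 bases before the start, a CCAAT box at 56 bases and again at 15 bases, a C/EBP match at 94 bases and a FOXA match at 128 bases. Mup3 held only the TATA box, at 11 bases, where TATATA reads the same on both strands. Apoa2 held a FOXA match at 77 bases, a CCAAT box at 164 bases and a TATA match at 212 bases. Apoa1 held FOXA matches at 88 and 75 bases. Among the 6 promoters, the HNF1 core occurred in 2 (Alb and Fgb), against 6.43% of all 32851 promoters of the same length. FOXA letters occurred in 4 (17.8% of all), the CCAAT box in 3 (33.8%), the TATA letters in 3 (22.6%) and the C/EBP letters in 3 (9.56%). The TATA matches in Hpx overlap each other. A match describes the letters only, and no motif was held by all 6 promoters.

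The comparison the design holds is that of females with males. Of the 8 genes, 0 differed at an adjusted p under 0.05 (limma, Benjamini-Hochberg over 22180 genes), against 0.0316% of all genes and 0.0135% that passed with higher values in females, and 1 had an unadjusted p under 0.05, against 6.96% of all genes. All 8 had higher means in females, where 49.6% of all genes did, and the median difference of the 8 was 0.18, against -0.00058 over all genes. The genes were selected on hearts that stood out, and those hearts are both female, so the direction follows from the selection and nothing is read from it. The values of the sexes overlapped in all 8, so 0 were separated, against 3.74% of all genes. The gene with the unadjusted p was Mup3, which averaged 0.33 ± 0.31 in females and -0.09 ± 0.11 in males (SD, n = 4 each). Its difference was 0.42 ± 0.14 (SE, limma adjusted p = 0.596).

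In the other genes the spread among females was at least as large as the difference. Alb averaged 1.07 ± 1.38 in females and -0.08 ± 0.10 in males (SD, n = 4 each), a difference of 1.15 with a 95% interval from -0.13 to 2.43 (limma adjusted p = 0.733). Mup20 averaged 0.43 ± 0.55 in females and -0.04 ± 0.04 in males (SD, n = 4 each), a difference of 0.47 (adjusted p = 0.728). The differences of Apoa2, Hpx, Fgb, Ttr and Apoa1 were 0.20, 0.17, 0.12, 0.07 and 0.06, with adjusted p between 0.726 and 0.963. Without females 1 and 2, the difference was -0.00059 in Alb, -0.00019 in Mup20, -0.0021 in Apoa2, -0.05 in Ttr and -0.06 in Apoa1. It stayed above 0 in Mup3 at 0.17, in Hpx at 0.03 and in Fgb at 0.02. In Apoa1, leaving out female 2 alone gave -0.05. The higher female means of Alb, Mup20 and Apoa2 rested on females 1 and 2. These hearts hold the high values and were left out after the data were seen, so the fall follows from that choice.

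**Figure D3:**
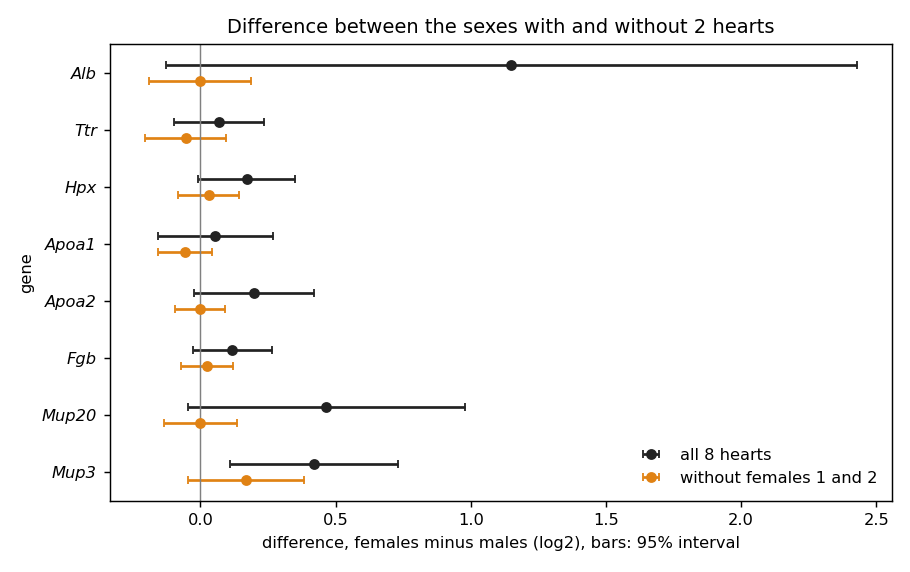
Difference between females and males in log2 value (horizontal axis, females minus males) for each gene, with points for the limma estimate and bars for its 95% interval, over all 8 hearts (black) and without females 1 and 2 (orange). With all hearts every interval but that of Mup3 spans 0, and without the 2 hearts the estimates of Alb, Mup20 and Apoa2 lie within 0.0021 of 0. The 2 hearts hold the high values and were left out after the data were seen.

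Other secreted proteins of hepatocytes were less marked. Of 41 measured genes of this list, 7 had females 1 and 2 as their highest hearts (17.1%, against 4.32% of all genes). Of the list, 13 were highest in female 2, against 11.7% of all genes, and 0 had a span of at least 1 on the log2 scale, against 0.307% of all genes. Its mean was 0.01 in female 1 and 0.07 in female 2, and lay between -0.02 and 0.03 in the other hearts. Besides Fgg the 7 were Serpina1c, a gene of the protease inhibitor alpha-1-antitrypsin, Apoc1 and Apob, which encode apolipoproteins, F9, a clotting factor gene, Plg, the plasminogen gene, and Pzp, an alpha-2-macroglobulin relative. In F9, Plg, Apob and Pzp the lower of females 1 and 2 exceeded the next heart by only 0.0049, 0.02, 0.03 and 0.04. Serpina1c had 0.27, 0.21, -0.0020 and -0.13 in females 1 to 4, against 0.0020, -0.14, 0.01 and -0.20 in males 1 to 4. It belongs to a cluster of near-identical genes, so its value may include others. Apoc1 had 0.12 in female 1 and 0.38 in female 2, and at most 0.07 in another heart. Mug1, the murinoglobulin gene, had 0.49 in female 2 and 0.11 in female 1, below the 0.18 of male 4.

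Plasma protein genes with other patterns were also present. Ahsg, the fetuin-A gene, had the widest span of the list and was highest in female 4 at 0.49, with -0.24 in female 1 and 0.15 in female 2. Rbp4, the gene of the retinol-binding protein that transthyretin carries, was highest in female 4 at 0.42 and had 0.01 in female 1 and -0.05 in female 2. Of 12 measured acute phase genes, 0 had females 1 and 2 as highest hearts, against 4.32% of all genes, which is near that share for so few genes. Serpina3n, an acute phase inhibitor gene, ran the other way, with -0.63, -0.67, -0.12 and -0.08 in females 1 to 4, against 0.21, 0.27, 0.08 and 0.17 in males 1 to 4. The haptoglobin gene Hp was highest in female 4 at 0.44, and the ceruloplasmin gene Cp in female 3 at 0.13. Hamp, the gene of the iron hormone hepcidin, had the widest span of the acute phase genes, 3.36, against 2.87 in Alb. It had -1.42, 0.95, -0.81 and 0.96 in females 1 to 4, against -2.40, 0.45, -0.45 and 0.49 in males 1 to 4.

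Hepatocyte genes whose proteins are not secreted were examined as markers of liver cells. Of 42 measured enzymes and transporters, 8 had females 1 and 2 as the highest hearts (19%, against 4.32% of all genes): Cps1, Arg1, Cyp2d9, Gnmt, Mat1a, Kmo, Hsd3b5 and Baat. Their values were small, at most 0.14 in female 1 and 0.19 in female 2. The urea cycle gene Cps1 had 0.14 in female 1 and 0.15 in female 2, against 0.12 in male 2. Fabp1, the liver fatty acid-binding protein gene, had 0.49 in female 2 and 0.04 in female 1, below the 0.07 of male 2. Of the list, 14 were highest in female 2, against 11.7% of all genes. The list mean was 0.0058, 0.09, 0.0012 and 0.06 in females 1 to 4, against -0.03, -0.01, 0.0080 and -0.01 in males 1 to 4. Female 2 was thus the highest heart in this mean, while female 1 lay among the other hearts. The genes of this list with the widest spans, Cyp2e1 and Cdo1, were highest in female 4 at 0.96 and 0.48, and Hal was highest in male 4 at 0.67, while Pck1 was highest in female 2 at 0.44 and had -0.31 in female 1. Cyp2e1, Cdo1 and Pck1 are also expressed in fat.

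Of 11 hepatocyte transcription factor genes, 0 had females 1 and 2 as the highest hearts, against 4.32% of all genes. On so short a list a count of 0 is near that share. Their list mean lay between -0.02 and 0.07 in females and between -0.01 and 0.0022 in males. Of 7 markers of Kupffer cells and liver sinusoidal endothelium, 1 had females 1 and 2 as the highest hearts (14.3%). It was the ficolin gene Fcna, with 0.09 in female 1 and 0.08 in female 2. The Kupffer cell marker Clec4f had 0.12 in female 1 and -0.09 in female 2, and the sinusoidal marker Stab2 had -0.02 and 0.04. The part of hepatocyte RNA in the high values of Alb and the Mup genes was not tested. In RNA of heart tissue, a different number of cells of a type and a different amount of RNA per cell cannot be told apart.

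Markers of other tissues and cells varied in how often females 1 and 2 were their highest hearts, against 4.32% of all genes. Among measured red cell (2), adipocyte (10), fast skeletal muscle (10), atrial (5), mesothelial (6), exocrine pancreas (5) and macrophage (8) markers, 0 genes of each list had them as the highest hearts. Of 6 platelet, 6 kidney and 6 lung markers, 1 of each did (Itga2b, Aqp2 and Sftpa1, 16.7% of each list), and of 9 cardiac muscle markers 2 did (Myh6 and Tnni3, 22.2%). Single genes outside the liver lists thus also had these hearts highest. On such short lists 1 or 2 genes set the share, so the shares are not compared with those of the liver lists. The atrial list mean was -1.32 in female 1, the lowest heart, and 0.56 in female 2, the highest heart, with males between -1.07 and 0.26. The fast skeletal muscle mean was 0.31 in female 1 and 0.08 in female 2, with males between -0.18 and 0.77. The adipocyte mean was -0.13 in female 1 and 0.24 in female 2, below the 0.44 of female 4, with males between -0.25 and 0.15. The part of these differences between the hearts in the values of the 8 genes was not tested.

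Genes that take up or recycle plasma proteins were also read. Of 11 measured receptors and handling proteins, 0 had females 1 and 2 as the highest hearts, against 4.32% of all genes, which is near that share for so few genes. Pltp, the phospholipid transfer protein gene of lipoproteins, had -0.30 and -0.24 in females 1 and 2, the lowest values of the 8 hearts. The list mean was -0.08 in female 1 and -0.07 in female 2, and between 0.01 and 0.03 in males. Over the 18 lists of other genes, 0 of 200 measured genes passed the comparison of females with males (limma), against 0.0316% of all genes. An unadjusted p under 0.05 was found for 16, against 6.96% of all genes, so both counts are near those shares.

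**Figure D4:**
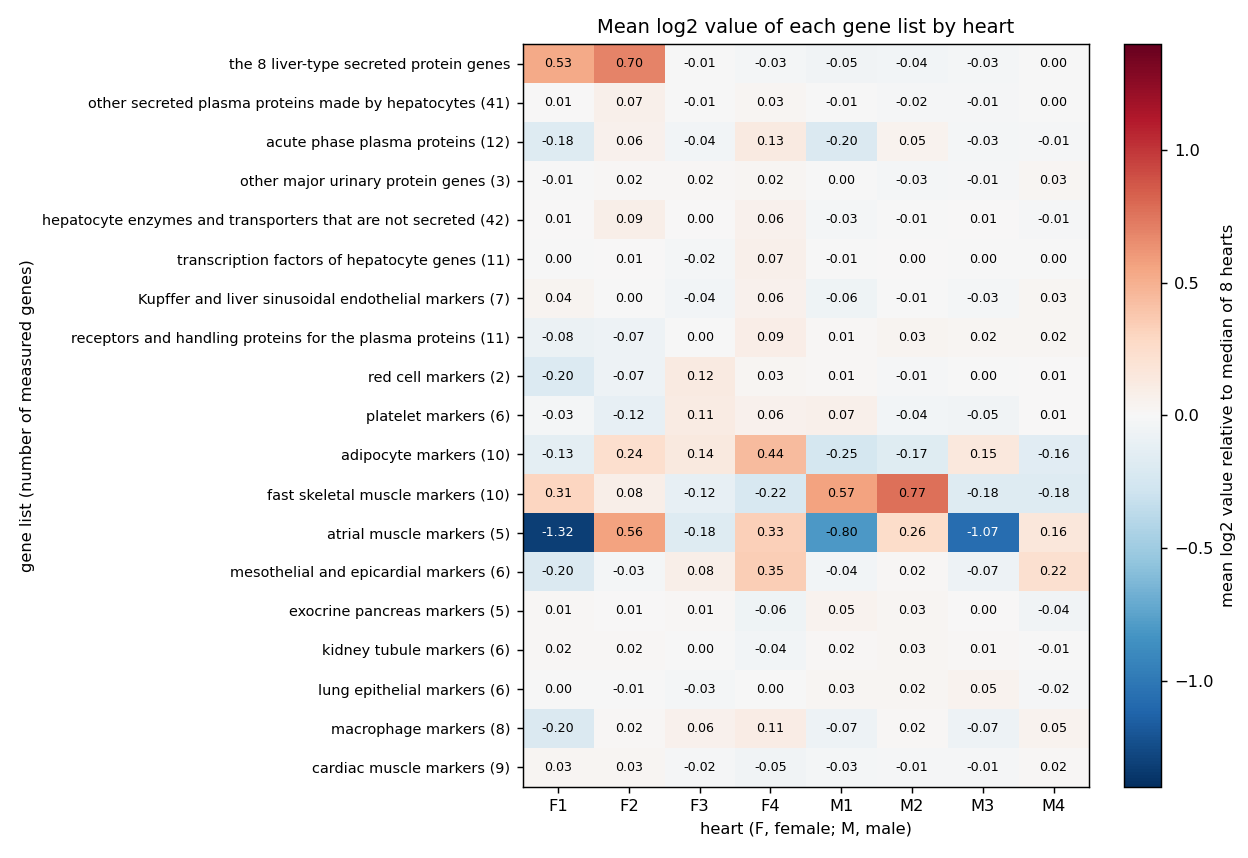
Mean log2 value relative to the median of the 8 hearts (colour and printed number) for the 8 genes and for the 18 gene lists (rows, with the number of measured genes) in females 1 to 4 and males 1 to 4 (columns). The 8 genes average 0.53 in female 1 and 0.70 in female 2 and between -0.05 and -0.0027 in the other hearts. Alb, at 1.76 and 2.69 in females 1 and 2, weighs most in those averages. The atrial list is lowest in female 1 and highest in female 2.

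Among 64 other genes with a span of at least 1, those most like the mean of the 8 were small nucleolar RNA genes. Genes with smaller spans were not searched, though only 2 of the 8 reach that span themselves. High values in females 1 and 2 can by themselves bring a gene to that span. Alb, with the widest span of the 8, weighs most in their mean. Likeness was the Pearson correlation over the 8 hearts. It was 0.94 for Snord71, 0.93 for Snora73a, Snord104 and Snora73b, and no more than 0.66 for the others named by the rule, among them Iigp1, Snora75, Mir1949, Xist, Pirt and an immunoglobulin kappa gene. Without females 1 and 2 it was 0.74 for Snord71, 0.71 for Snora73b, 0.63 for Snora73a and 0.25 for Snord104, over 6 hearts in which the mean of the 8 genes lay between -0.05 and -0.0027. Snord104, which guides RNA modification, had 1.19, 1.53, 0.31 and -0.45 in females 1 to 4, against -0.07, 0.07, -0.64 and -0.09 in males 1 to 4. Of all genes, 9 had both females 1 and 2 more than 0.2 above every other heart (0.0406%), a limit set after the values were seen. They were Alb, Mup20, Apoa2 and Mup3 and the small nucleolar RNA genes Snord104, Snord71, Snora73b, Snora73a and Snord110. Of 73 measured genes named as small nucleolar RNAs, 13 had females 1 and 2 as the highest hearts (17.8%, against 4.32% of all genes). The mean of the 73 was 0.06, 0.18, 0.05 and 0.01 in females 1 to 4, against -0.06, -0.10, 0.01 and -0.03 in males 1 to 4. Female 1 was thus close to female 3 in this mean.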

How the data were processed

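RNA of 8 hearts was measured on 8 arrays. Per the labels' protocols, 100 ng of total RNA per heart went into biotin labelling. The deposited table holds log2 values for 34351 probe sets, each centred on its own median over the arrays. The log base was taken as 2, and the software for background correction and normalization is not given in the sources used here. The number of arrays limits the precision. Probe sets with 1 symbol in the platform annotation (23521, against 1814 with several and 9016 unnamed) were averaged to 22180 genes.

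Females minus males was fitted with limma 3.58.1 in R 4.3.3 over all genes, with Benjamini-Hochberg adjustment and a threshold of 0.05, and tested on simulated data. Members and lists were chosen with earlier results of these data known. Named genes were the 8 members, the 10 genes most correlated with their mean among genes with a span of at least 1 (predicted genes left out), and of each list the 4 with the widest span and the first 2; others were chosen after their values were seen. Motif letters are textbook consensus letters. Alternatives were quantile normalization, array medians subtracted, probe sets singly, array weights, an eBayes prior with trend and robust fitting, the replicate block, each array left out, a threshold of 0.1 and, added after seeing the data, leaving out females 1 and 2 together.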

Additional observations from a re-analysis of the deposited data

Results flagged for a closer look

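Apoa1 in female 2, at 0.406, lay far from the other 3 females, whose values ran from -0.05 to -0.01. Its gap to the nearest of them was 0.917 of the range of the 4. Of 16 sets of 4 hearts examined for the 8 genes, this was the 1 with such a sample. Chance gives such a sample in about 5% of sets, and the genes were selected on these values, so nothing is read from it. Alb, Mup20 and Apoa2 were not picked out in this way because females 1 and 2 were both high.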

How the results depend on the processing

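Of 128 differences between females and males (8 genes under 16 alternatives), 122 kept the direction of the value reported and 0 passed the threshold. The lowest adjusted p (limma) was 0.326. Probe sets singly, trend and robust fitting, the replicate block and the threshold of 0.1 left the estimates of the 8 genes unchanged. Their directions could not turn there, so the count of 122 overstates the stability. The 6 that turned were Alb (-0.00059), Mup20 (-0.00019), Apoa2 (-0.0021), Ttr (-0.0539) and Apoa1 (-0.0557) without females 1 and 2, and Apoa1 without female 2 (-0.0536); the 2 hearts hold the high values. With 1 array left out, the difference ran from 0.61 to 1.56 in Alb, from -0.0536 to 0.0988 in Apoa1, from 0.27 to 0.65 in Mup20 and from 0.31 to 0.55 in Mup3. Over all genes 7 differed, and 3 with quantile normalization of the centred values, the cause of which was not tested, or 4 to 7 with 1 array left out (4 without male 3). Of the 8 genes, 2 (Alb and Mup20) spanned at least 1, and 1 did with quantile normalization or without female 1 (1 to 2 with an array left out). The number highest in the same heart as Alb, 5, was 5 to 8 with an array left out, with 8 reached without female 1, and it was 4 with quantile normalization. The number with females 1 and 2 as the highest hearts was 7 under quantile normalization and with array medians subtracted. The replicate number as a block gave 8 genes over all, and 0 of the 8 members passed. Deviations of same-numbered females and males correlated between 0.0062 and 0.14, and 5 of the 8 hearts correlated best with their own number. The labels name no pairing, so the main fit holds no block. Whether the numbers pair the hearts was not settled. Centred values hold no brightness, so how far the signals lay above background is unknown.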

Other observations

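Major urinary protein RNA was also read by 2 probe sets that are each assigned to 4 Mup symbols, and so to no single gene. The first had 0.13, 0.87, 0.09 and -0.02 in females 1 to 4, against -0.01, -0.03, 0.01 and -0.06 in males 1 to 4. The second had 0.37, 0.22, -0.02 and 0.01 in females 1 to 4, against 0.22, -0.06, -0.09 and -0.01 in males 1 to 4. Females 1 and 2 were the highest hearts in both, but the first was led by female 2, unlike Mup20 and Mup3, and in the second male 1 was level with female 2. Of 19 further Mup genes looked for, 3 had a probe set of their own, and Mup5, Mup6 and Mup21 spanned 0.17, 0.16 and 0.02, with their highest values in female 4 for Mup5 and male 4 for the other 2.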
